A study of Bos grunniens and Bos grunniens x Bos taurus with 12 samples.

Results

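The genes described here build the axoneme, the microtubule core of the sperm tail and of motile cilia: axonemal dynein chains and their assembly factors, radial spoke genes, genes of the nexin-dynein regulatory complex (N-DRC), and genes named CFAP, for cilia and flagella associated protein. They were chosen by symbol, with earlier results of these data known. The rule took every gene whose symbol is DNAH, DNAI, DNAL, DNAAF, CFAP, RSPH or DRC followed by a number, or is SPAG16 or SPAG17. The central apparatus genes HYDIN and SPAG6 were also sought and are not analysed here. The choice gave 52 of the 20965 genes of the tables, of which 13662 carry a symbol.

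Ribo-seq, which sequences the mRNA fragments protected by ribosomes (ribosome footprints), was performed on testes of 12 animals, with 3 libraries in each of 4 groups. The labels give yak in the juvenile stage at 6 months (Y6M), yak at puberty at 18 months (Y18M), yak at sexual maturity at 4 years (Y4Y), and 4-year-old cattle-yak (CY), the hybrid of cattle and yak whose males are sterile. The methods of the study name Jersey cattle as sires and Gannan yaks as dams of the hybrids. By those methods the testes of Y4Y were taken after euthanasia and those of CY by castration, while the labels give castration for all animals. Where the methods hold, the way of collection and the group cannot be told apart. All reads, those of the hybrid included, were counted on the yak genome, and the effect of this on the hybrid's counts was not tested. A library is whole testis tissue of 1 animal, so fewer cells of a type and fewer footprints per cell cannot be told apart.

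An axoneme has a ring of microtubule doublets around a central pair. Outer and inner dynein arms on the doublets make them slide, radial spokes link the doublets to the central apparatus, and the N-DRC holds neighbouring doublets together and turns sliding into bending. In the testis the sperm tail axoneme is built in spermatids, which arise after meiosis. Some parts have separate gene copies for sperm and for motile cilia of airways and efferent ducts, DNAH8, DNAH17 and RSPH6A serving mainly sperm and DNAH5, DNAH9, DNAH11 and RSPH4A mainly cilia.

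Total counts were 16304058 to 17862516 per Y4Y library, 38437889 to 52616039 in CY, 25816963 to 37167651 in Y6M and 21309151 to 24542362 in Y18M. One library stood apart from its group. Y18M-2 correlated with Y18M-1 and Y18M-3 at Pearson r = 0.876 and 0.899 across the log2(FPKM + 1) values of 20965 genes, against 0.974 between the other pair (FPKM is the count scaled by gene length and library size). Round spermatid markers summed to 842 FPKM in Y18M-2, against 4.67 in Y18M-1 and 7.37 in Y18M-3, over 8 genes. Y18M-2 keeps its label in every result below, and each comparison with Y18M is given with and without it.

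The 52 genes took 0.567% ± 0.0301 (SD, n = 3) of all counts in Y4Y and 0.0501% ± 0.00924 (n = 3) in CY, so the share in Y4Y was 11.3 times that in CY. In Y6M the share was 0.0215% ± 0.00181 (n = 3). In Y18M it was 0.0231% in Y18M-1 (95% Wilson interval 0.0225 to 0.0237%), 0.334% in Y18M-2 (0.332 to 0.337%) and 0.0325% in Y18M-3 (0.0318 to 0.0332%). These intervals cover counting error only. No CY library reached the share of any Y4Y library, and every CY library lay above every Y6M library. Y18M-2 held 12 times the mean share of the other 2 libraries of its group and 58.9% of the Y4Y mean.

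**Figure D1:**
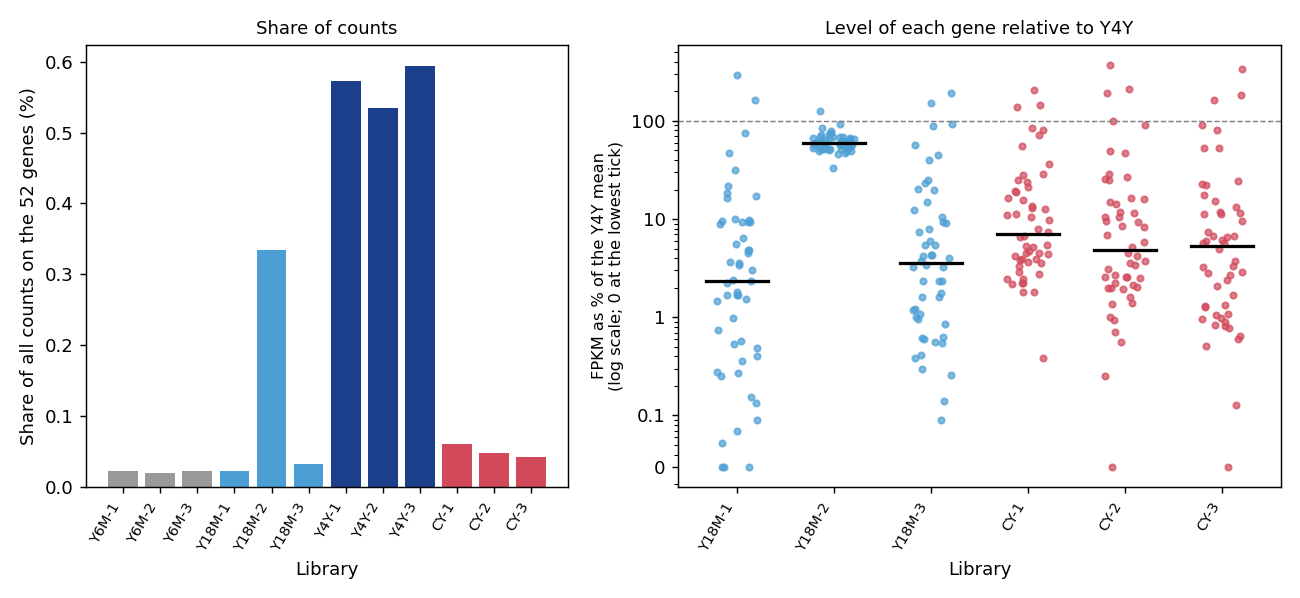
Left, the share of all counts that falls on the 52 axoneme genes in each library (%). Right, the FPKM of each gene (points) in the Y18M and CY libraries as % of its Y4Y mean on a log scale, with the median as a line: Y18M-2 lies at 59.5%, and CY-1, CY-2 and CY-3 lie at 7.03%, 4.87% and 5.33%.

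In Y4Y, 49 to 50 of the 52 genes had at least 1 FPKM, against 25 to 32 in CY and 11 to 14 in Y6M. The Y4Y mean ran from 331 ± 31.9 FPKM (n = 3) for CFAP36 to 0.137 ± 0.237 for CFAP73, with a median of 21.2 FPKM over the genes. The 3 Y4Y libraries were the 3 highest of all 12 libraries for 45 of the 52 genes. This pattern requires every Y4Y library to lie above every Y18M library, which held for 30.9% of 15760 genes. The 15760 genes are those with a mean of at least 1 FPKM in any group. Their share with the full pattern is thus at most 30.9%. Every CY library lay below every Y4Y library for 48 of 52 genes, beside 36.8% of the 16498 genes tested in this comparison. The 4 exceptions were CFAP20, CFAP410, CFAP73 and DNAH11. The median gene stood in CY at 5.46% of its Y4Y mean FPKM and in Y6M at 1.03%.

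**Figure D2:**
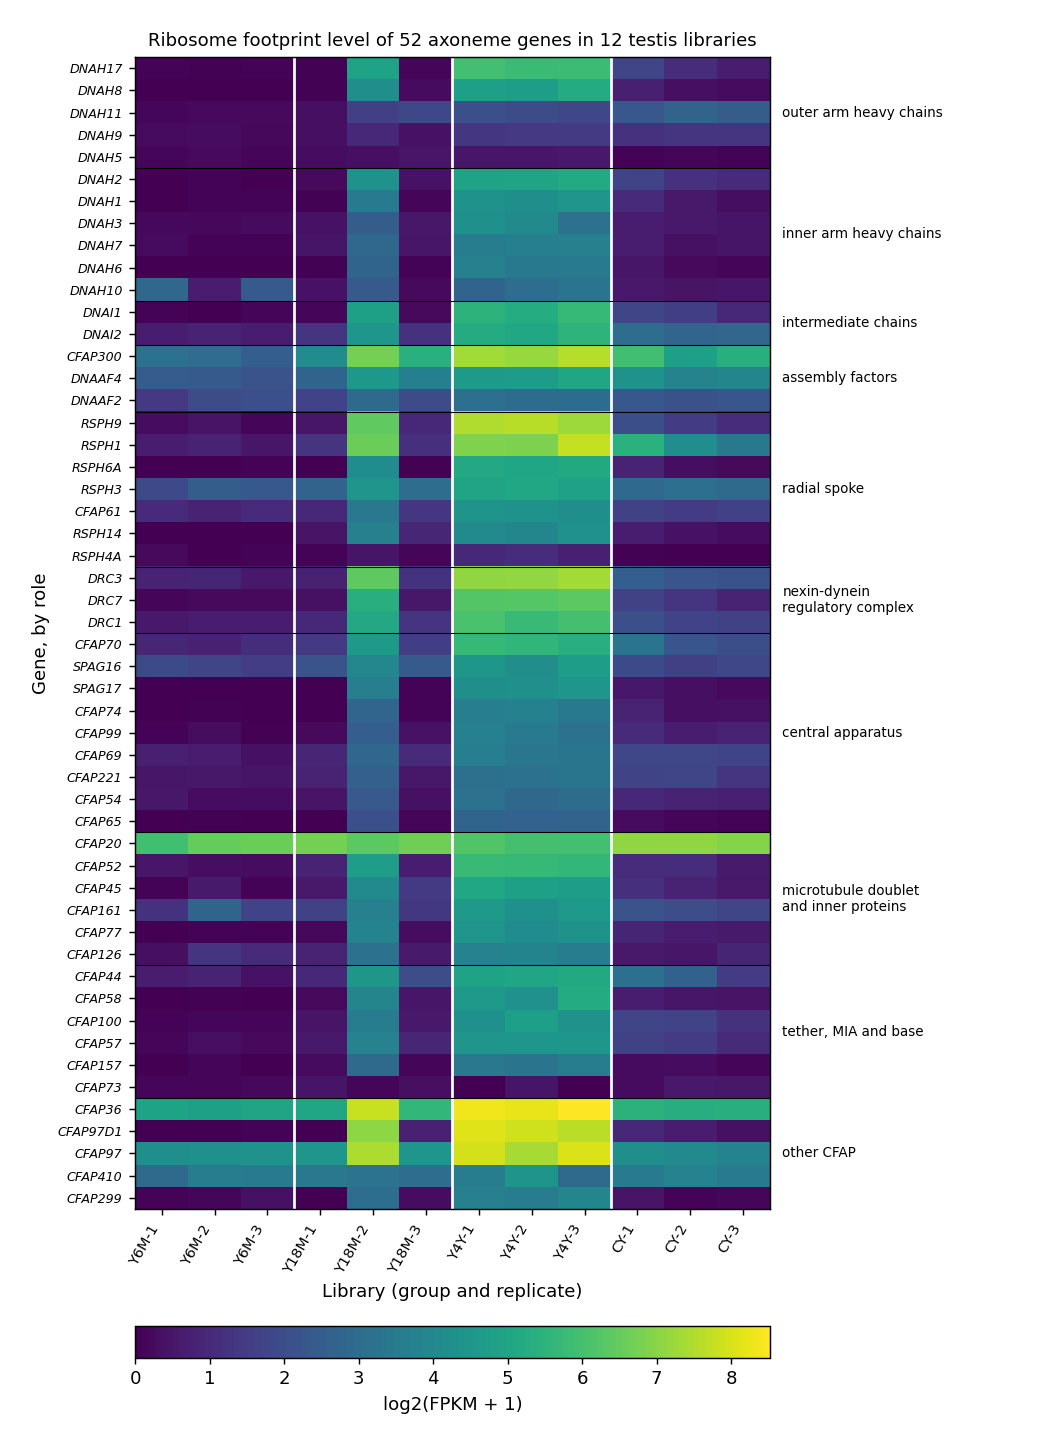
Level of each of the 52 genes, as log2(FPKM + 1), in the 12 libraries, with genes ordered by role and by Y4Y level within a role. The Y4Y columns are the brightest for 45 genes, Y18M-2 is brighter than the rest of its group for 47, and CFAP20 is bright in every library, at 60.1 to 137 FPKM.

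The comparison of CY with Y4Y asks how the hybrid testis differs from the fertile testis of the same labelled age. A gene is called here where the quasi-likelihood test of edgeR, adjusted by Benjamini-Hochberg over all genes tested, gave p below 0.05 and where its level changed by 1 or more on the log2 scale, up or down. All 52 axoneme genes could be tested. In CY, 45 fell, beside 27% of the 16498 genes tested, and 1 rose, beside 17.1%. The median log2 fold change of the 52 genes was -4.24, against -0.00 over all genes tested. With any 1 library left out, 45 to 47 genes were called lower, beside 24.2% to 27.2% of all genes tested. The genes not called in either direction were CFAP410, CFAP73, DNAAF2, DNAAF4, DNAH11 and DNAH9. Markers of other cells moved with this comparison: the round spermatid list, with 8 of 10 genes measured, summed to 1445 to 2189 FPKM in Y4Y and to 4.39 to 10.3 in CY, with none of the 8 at 0 in all CY libraries. The elongating spermatid list, with 4 of 10 genes measured, summed to 8274 to 11324 FPKM in Y4Y and to 1.13 to 26.5 in CY. The spermatocyte list, with 9 of 10 genes measured, summed to 881 to 962 FPKM in Y4Y and to 343 to 550 in CY, much of it PIWIL1, with a mean of 324 FPKM in Y4Y and 17.3 in CY, and 5 of its 9 genes were not called. The spermatogonia list summed to 647 to 941 FPKM in Y4Y and 1471 to 1626 in CY over 7 genes. The Sertoli cell list summed to 613 to 848 and 1093 to 1356 over 7 genes, and the fibroblast list to 128 to 167 and 393 to 657 over 5 genes. The macrophage list summed to 299 to 435 and 156 to 198 over 6 genes, much of it AIF1. That gene had a mean of 194 FPKM in Y4Y and 13.1 in CY. Of the 6 macrophage genes 4 were not called, and the list had a median log2 fold change of -0.17. The part of these shifts in cell makeup in the values of the axoneme genes was not tested.

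**Figure D3:**
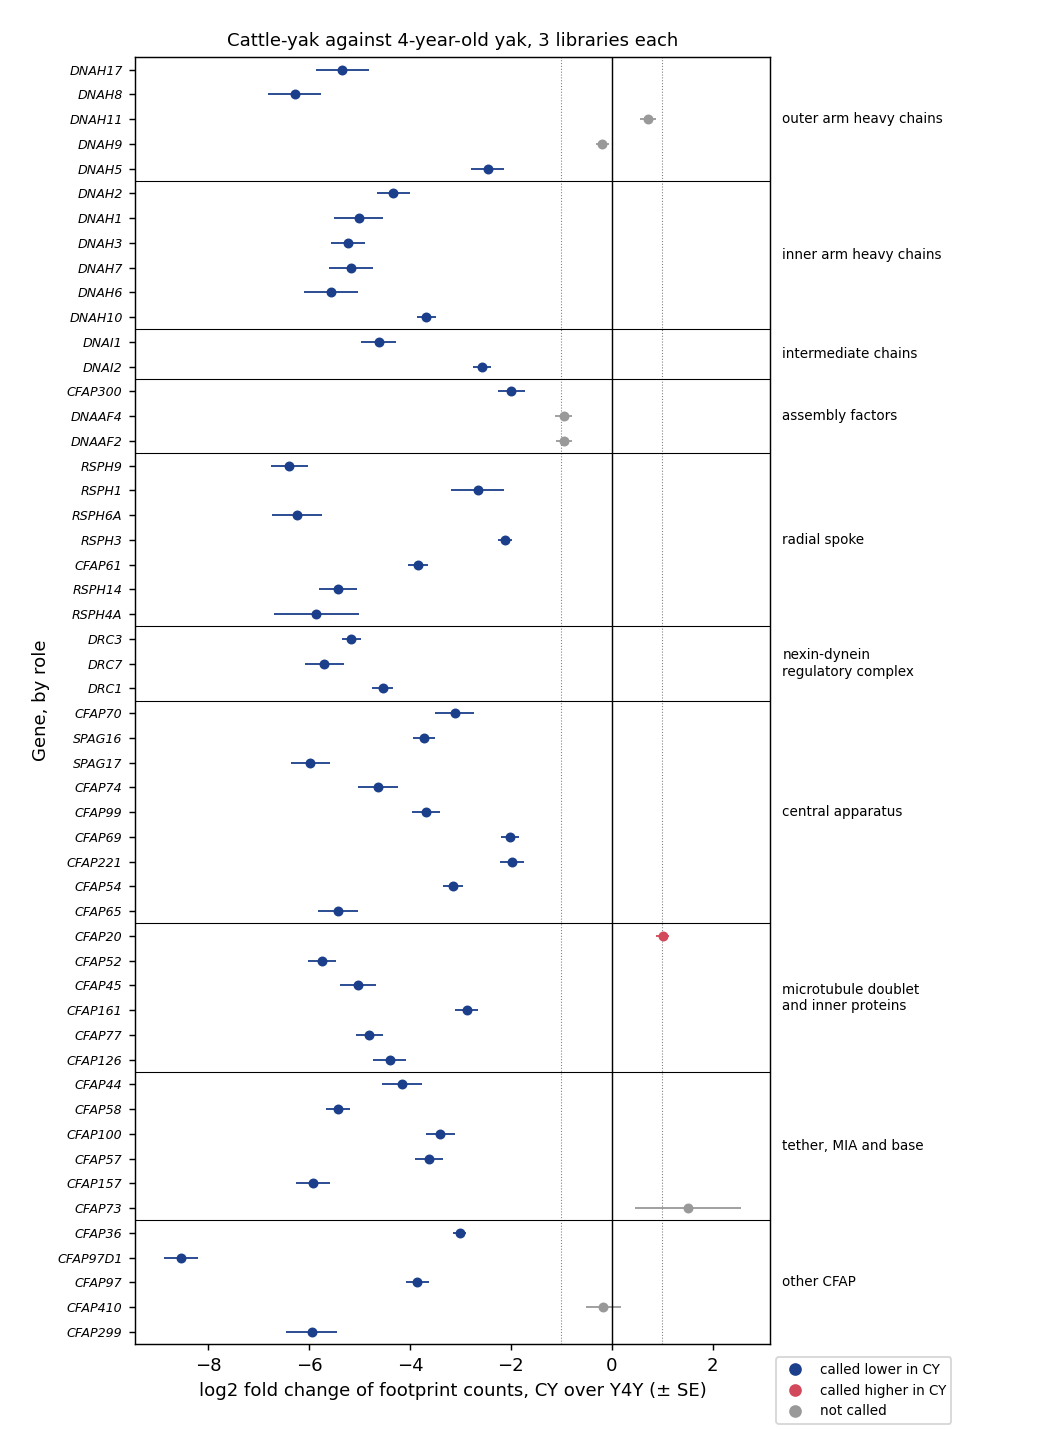
The log2 fold change of footprint counts in CY over Y4Y with its standard error for the 52 genes by role (n = 3 libraries in each group), with dotted lines at -1 and 1. CFAP97D1 lies lowest at -8.54, and CFAP20 is the gene called higher, at 1.01.

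The outer dynein arms carry the heavy chains that give most of the power of the beat. DNAH17, a sperm heavy chain, had 61.5, 55.3 and 55.7 FPKM in the Y4Y libraries and 2.43, 1.17 and 0.57 in the CY libraries. DNAH8, its sperm partner, had 26.7, 26.6 and 36.6 FPKM in Y4Y and 0.67, 0.28 and 0.18 in CY. The groups were apart for both genes, and CY-1 was the highest of the CY libraries each time. DNAH17 fell by 5.34 on the log2 scale (SE 0.525, edgeR adjusted p = 4.64e-05) and DNAH8 fell by 6.28 (SE 0.518, edgeR adjusted p = 1.79e-05).

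The heavy chains known from motile cilia had lower FPKM in Y4Y than the sperm chains and did not share 1 pattern. DNAH11 had 3.25, 2.90 and 2.54 FPKM in Y4Y and 3.99, 5.51 and 4.76 in CY. Every CY library lay above every Y4Y library, but the log2 fold change of 0.72 (SE 0.159, edgeR adjusted p = 0.00409) is below the size asked of a call. DNAH9 had 1.52, 1.68 and 1.71 FPKM in Y4Y and 1.31, 1.5 and 1.48 in CY, groups that lay next to each other without overlap. Its log2 fold change of -0.19 (SE 0.130, edgeR adjusted p = 0.239) missed the threshold, which does not show equal levels. DNAH5 had 0.42, 0.44 and 0.48 FPKM in Y4Y and 0.07, 0.12 and 0.06 in CY, and fell by 2.46 on the log2 scale (SE 0.322, edgeR adjusted p = 0.000240). Per length, the sperm chain DNAH17 thus had a CY mean of 1.39 ± 0.949 FPKM (n = 3), next to 1.43 ± 0.104 for DNAH9 and 4.75 ± 0.760 for DNAH11, while its Y4Y mean was 57.5 ± 3.44 FPKM, next to 1.64 ± 0.102 for DNAH9 and 2.90 ± 0.355 for DNAH11.

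The radial spoke heads showed the same pair of copies. RSPH6A, the sperm copy, had 34.4, 30.8 and 35.3 FPKM in Y4Y and 0.82, 0.24 and 0.17 in CY, and fell by 6.24 on the log2 scale (SE 0.500, edgeR adjusted p = 1.53e-05). RSPH4A, the cilium copy, had 0.92, 1.10 and 0.67 FPKM in Y4Y and 4, 0 and 0 counts in CY. It fell by 5.85 (SE 0.847, edgeR adjusted p = 0.000420), a value that rests on those few counts. Both copies were thus lower in every CY library than in any Y4Y library.

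**Figure D4:**
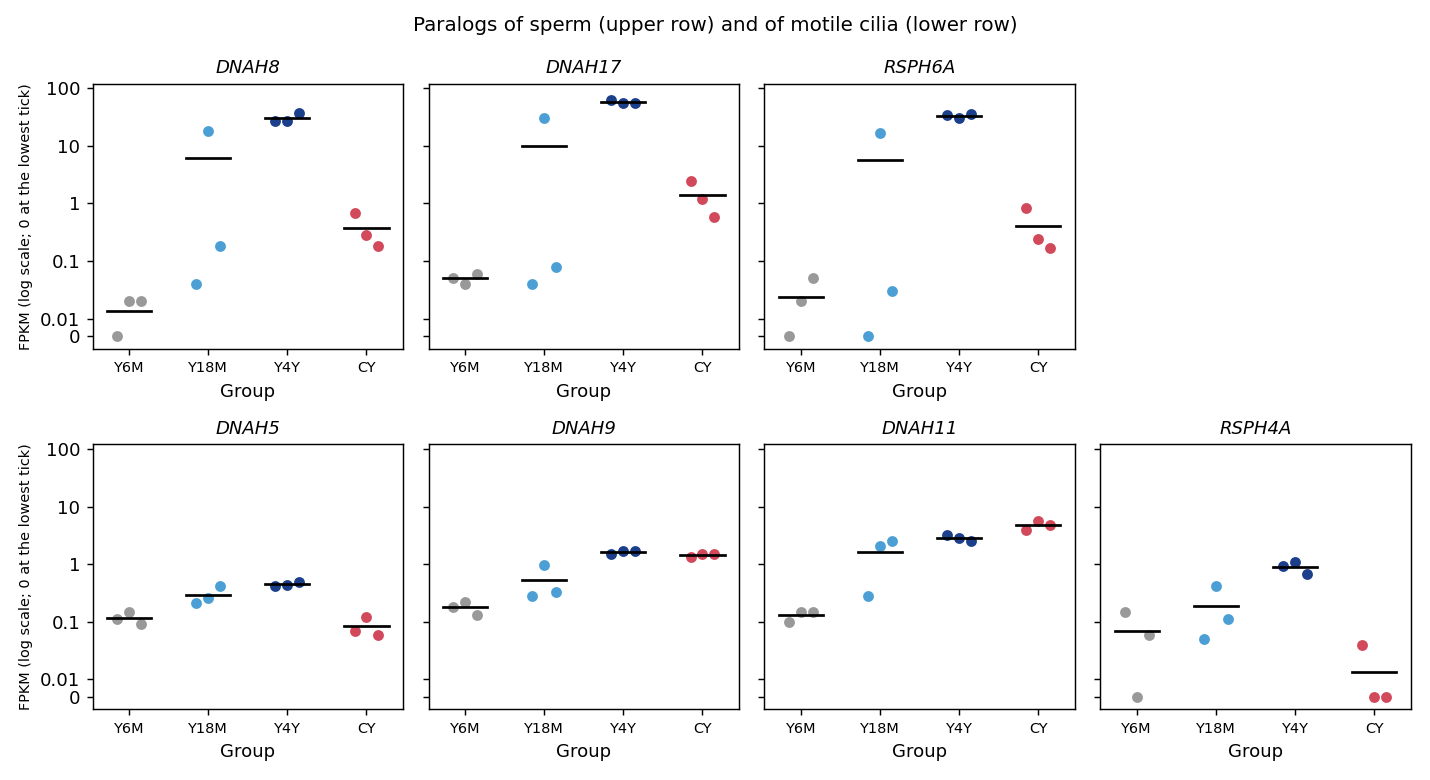
FPKM of each library (points) and group mean (line) on a log scale for 3 copies known from sperm (upper panels) and 4 known from motile cilia (lower panels). The sperm copies reach 26.6 to 61.5 FPKM in Y4Y and at most 2.43 in CY, while DNAH11 is higher in CY, at 3.99 to 5.51 FPKM.

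The inner arm heavy chains set the shape of the bend, and all 6 fell in CY, by 3.68 to 5.56 on the log2 scale. DNAH2, the most abundant, had 29.3, 30.2 and 36.0 FPKM in Y4Y and 2.33, 1.33 and 1.03 in CY. DNAH1 had 19.7, 17.8 and 20.8 FPKM in Y4Y and 1.01, 0.50 and 0.25 in CY. Neither gene had overlapping groups, and CY-1 was the highest CY library in both. DNAH3 fell by 5.23 (SE 0.344, edgeR adjusted p = 5.63e-06) and was uneven within Y4Y, with 18.5, 16 and 8.28 FPKM. DNAH10 had 5.67, 7.46 and 8.69 FPKM in Y4Y and 0.49, 0.38 and 0.44 in CY.

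The intermediate chains DNAI1 and DNAI2, which sit at the base of the outer arm, both fell, by 4.62 (SE 0.350, edgeR adjusted p = 1.16e-05) and by 2.58 (SE 0.175, edgeR adjusted p = 6.54e-06). DNAI1 had 44.2, 38.0 and 51.5 FPKM in Y4Y and 2.40, 2.01 and 0.92 in CY. DNAI2 had 37.0, 33.7 and 45.2 FPKM in Y4Y and 7.46, 5.79 and 5.96 in CY. In CY the mean of DNAI2 was 16.6% of its Y4Y mean, against 3.99% for DNAI1.

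Assembly factors fold the dynein chains in the cytoplasm before they enter the tail. The median of the 3 assembly factors with these symbols had 51.8% of its Y4Y mean FPKM in CY, against 5.46% over all 52 genes. DNAAF4 had 23.0, 25.3 and 31.1 FPKM in Y4Y and 19.1, 13.1 and 14.2 in CY, with a log2 fold change of -0.95 (SE 0.160, edgeR adjusted p = 0.000973). DNAAF2 had 7.54, 7.02 and 7.06 FPKM in Y4Y and 4.02, 3.37 and 3.80 in CY, with a log2 fold change of -0.94 (SE 0.158, edgeR adjusted p = 0.000988). Every CY library lay below every Y4Y library for both, so their adjusted p passed while the size stayed under that of a call. CFAP300, needed to bring dynein into the tail, fell by 1.99 (SE 0.263, edgeR adjusted p = 0.000256), with 161, 147 and 187 FPKM in Y4Y and 60.5, 26.7 and 40.2 in CY. Other assembly factors stood lower in CY. ZMYND10, whose symbol lies outside the choice, had a mean of 135.5 FPKM in Y4Y and 1.61 in CY, and LRRC6, likewise outside, 38.3 and 4.31. A gene without a symbol that the tables describe as dynein axonemal assembly factor 1 had 426, 367 and 464 FPKM in Y4Y and 14.4, 11.4 and 4.54 in CY.

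All 7 radial spoke genes fell, with a median log2 fold change of -5.42. RSPH9, a spoke head protein, had 180, 191 and 154 FPKM in Y4Y and 3.16, 1.78 and 1.12 in CY, and fell by 6.39 (SE 0.372, edgeR adjusted p = 3.23e-06). RSPH1, also of the head, kept the largest CY level of the group, with 42.1, 17.0 and 9.77 FPKM against 117, 112 and 216 in Y4Y. The groups did not overlap for either gene, and the RSPH1 level of CY-1 was 4.31 times that of CY-3. RSPH3, of the spoke stalk, had 6.47, 7.61 and 6.73 FPKM in CY, 22.7% of its Y4Y mean. All 3 N-DRC genes fell: DRC3 had 136, 138 and 159 FPKM in Y4Y and 4.77, 3.74 and 3.45 in CY, and fell by 5.16 (SE 0.183, edgeR adjusted p = 4.87e-07). DRC7 had 73.8, 76.9 and 81.0 FPKM in Y4Y and 2.14, 1.51 and 0.75 in CY. DRC1, the scaffold of the complex, fell by 4.54 (SE 0.211, edgeR adjusted p = 1.14e-06).

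All 9 central apparatus genes fell, by 1.98 to 5.98 on the log2 scale. CFAP70 had 51.3, 47.2 and 39.9 FPKM in Y4Y and 8.75, 3.83 and 3.12 in CY. SPAG16, a protein of the central pair, had 21.8, 17.5 and 26.0 FPKM in Y4Y and 2.74, 2.03 and 2.52 in CY. The groups were apart for both, with CY-1 again the highest of CY. SPAG17, of the projections of the central pair, fell the most of this group, by 5.98 (SE 0.389, edgeR adjusted p = 5.39e-06), while CFAP69 and CFAP221 fell the least, by 2.02 and 1.98.

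Among 6 genes of the microtubule doublet and the proteins inside it, 5 fell and CFAP20 rose. CFAP20, which lies at the inner junction of the doublet, had 72.3, 62.7 and 62.1 FPKM in Y4Y and 137, 137 and 121 in CY. In Y6M it had 60.1, 90.4 and 95.4 FPKM and in Y18M 107, 82.4 and 101. Its log2 fold change in CY over Y4Y was 1.01 (SE 0.132, edgeR adjusted p = 0.000231), just past the size of a call. It was called in 4 of 6 fits with 1 library left out and in none with DESeq2, with RLE scaling or with limma on log2(FPKM + 1). CFAP52, inside the same doublet, had 52.3, 51.6 and 49.0 FPKM in Y4Y and 1.14, 1.15 and 0.54 in CY, and fell by 5.74 (SE 0.284, edgeR adjusted p = 1.52e-06).

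Of the 6 genes of the dynein tethers, of the MIA complex that modifies the inner arms, and of the base, 5 fell. CFAP44 had 29.8, 32.1 and 35.3 FPKM in Y4Y and 7.73, 5.27 and 1.85 in CY, but its size depends on the scale. The counts gave a log2 fold change of -4.16 and the mean FPKM a log2 ratio of -2.71, since the length by which the authors divided was 0.377 times as large in CY as in Y4Y, relative to other genes. Only CFAP44 and CFAP61 of 42 genes with enough counts differed in this length by over 1.5 times, beside 0.403% of all genes. CFAP58 fell by 5.42 (SE 0.239, edgeR adjusted p = 9.71e-07), with 22.8, 19.03 and 37.1 FPKM in Y4Y and 0.57, 0.42 and 0.35 in CY. CFAP73 had 0, 7 and 0 counts in Y4Y and 12, 19 and 17 in CY. It was not called (log2 fold change 1.51, SE 1.05, edgeR adjusted p = 0.238). With counts this low its value depends on single libraries. It ran from 1.03 to 6.68 over the 3 fits with 1 library left out in which it was tested.

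The remaining CFAP genes held both the most and some of the least altered levels. CFAP97D1 had 274, 236 and 199 FPKM in Y4Y and 0.91, 0.59 and 0.30 in CY. It fell by 8.54 (SE 0.335, edgeR adjusted p = 6.62e-07), the largest fold change of the 52 genes. CFAP36, the most abundant in Y4Y, had 325, 302 and 365 FPKM there and 43.3, 39.0 and 39.5 in CY. CFAP97 had 247, 168 and 264 FPKM in Y4Y and 18.1, 15.7 and 12.9 in CY. The CY levels of CFAP36 and CFAP97 were nearer to those of the juvenile testis than to Y4Y. This was not particular to them, since the median of the 52 genes was 5.46% of the Y4Y mean in CY and 1.03% in Y6M. In Y6M CFAP36 had 29.5, 27.9 and 30.5 FPKM and CFAP97 had 17.9, 18.5 and 19.8. CFAP410, a protein of the base of cilia, had 11.2, 20.01 and 6.75 FPKM in Y4Y and 10.8, 12.6 and 10.3 in CY, overlapping groups with a log2 fold change of -0.16 (SE 0.354, edgeR adjusted p = 0.704). Its sign turns with Y4Y-2 left out, to 0.38.

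The CY libraries were not alike. CY-1 was the highest of the 3 for 39 of the 52 genes, beside 36.0% of all genes with a value, and at least 2 times CY-3 for 23, beside 6.84%. The same libraries gave spermatocyte marker sums of 550, 343 and 407 FPKM, round spermatid sums of 10.3, 8.06 and 4.39, and elongating spermatid sums of 26.5, 4.32 and 1.13. The part of these in the levels of CY-1 was not tested.

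The comparison of CY with Y6M sets the hybrid beside the juvenile testis. Of the 52 genes, 41 lay higher in every CY library than in every Y6M library, beside 50.8% of the 15571 genes tested, on the FPKM scale. The filter on low counts left 45 genes to test. Of these 29 rose in CY, beside 18.1% of genes tested, and 1 fell, beside 19.7%. The count of rises was 10, beside 14.9%, in a fit of all 12 libraries and 19, beside 24.8%, with limma on log2(FPKM + 1). The 7 genes left out were CFAP157, CFAP299, CFAP73, CFAP97D1, RSPH14, RSPH4A and RSPH6A. Scaling by library size in place of TMM moves the median of all genes to 0.52 on the log2 scale and gave 33 higher and 1 lower of the 45. Over all genes that scaling turned 2823 higher and 3067 lower calls into 4867 and 1875. In these libraries the spermatocyte list summed to 126 to 188 FPKM in Y6M and 343 to 550 in CY. Most of the Y6M sum was HORMAD1, with a mean of 148 FPKM in Y6M and 173 in CY. HORMAD1 was the only gene of the list not called. Of the 9 spermatocyte genes 8 were called higher in CY, and the list had a median log2 fold change of 4.80. The round spermatid list summed to 1.41 to 2.61 FPKM in Y6M and 4.39 to 10.3 in CY. The Sertoli cell list summed to 6075 to 7521 FPKM in Y6M and 1093 to 1356 in CY, and the fibroblast list to 2472 to 2615 and 393 to 657. Their part in the result was not tested.

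DNAH2 had 0.02, 0.06 and 0.02 FPKM in Y6M, below every CY library, and rose by 5.03 on the log2 scale (SE 0.500, edgeR adjusted p = 9.67e-05). RSPH1 had 0.55, 0.76 and 0.44 FPKM in Y6M and rose by 4.82 (SE 0.593, edgeR adjusted p = 0.000267). DNAH11 had 0.10, 0.15 and 0.15 FPKM in Y6M and rose by 4.66 (SE 0.204, edgeR adjusted p = 3.32e-06). All 3 genes were higher in each CY library than in any juvenile one. By role, 4 of 5 outer arm chains, 5 of 6 inner arm chains, both intermediate chains, all 3 N-DRC genes and 6 of 9 central apparatus genes rose, but 1 of 6 doublet genes (CFAP77) and 0 of the 3 tested of the remaining CFAP genes. CFAP36 had a log2 fold change of -0.07 and SPAG16 one of -0.49 (edgeR adjusted p = 0.660 and 0.207), and both turn positive with scaling by library size, to 0.47 and 0.068.

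DNAH10 was the exception, with 6.32, 0.61 and 4.30 FPKM in Y6M. Those values come from 1795, 226 and 1339 counts, so all 3 juvenile libraries lay above every CY library, and 2 of the 3 were near the level of Y4Y. It fell by 3.35 on the log2 scale in CY (SE 0.757, edgeR adjusted p = 0.00567), the only called fall. No other member of the inner arm group passed 0.19 FPKM in Y6M. CFAP126 had 0.26, 1.45 and 1.05 FPKM in Y6M and 0.48, 0.42 and 0.84 in CY, overlapping groups with a log2 fold change of -1.18 (SE 0.629, edgeR adjusted p = 0.140).

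Several sperm tail genes were at the counting floor in the juvenile testis. RSPH14 had 0 counts in all 3 Y6M libraries, 315, 284 and 349 in Y4Y and 34, 13 and 9 in CY. Against a floor of 3 counts over the group, its share of counts was at least 570-fold higher in Y4Y and at least 13.5-fold higher in CY than in Y6M. CFAP97D1 had 1 count over the 3 Y6M libraries and 43 over CY, a ratio of shares of 31.1 (95% interval 5.29 to 1255). SPAG17 had 6 counts over Y6M and 271 over CY, a ratio of 32.6 (95% interval 14.8 to 89.7), RSPH6A a ratio of 19.8 (6.53 to 97.7), CFAP58 one of 35.2 (11.8 to 172) and CFAP77 one of 14.1 (5.29 to 53). These floors and exact intervals cover counting error only, not the spread between animals.

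The comparisons with Y18M ask how the genes move through puberty. With all libraries, 0 of 38 tested members were called in Y18M over Y6M in either direction, beside 0.0202% of 14874 genes called higher and 0.0471% lower. At an unadjusted p below 0.05 edgeR gave 25 of the 38, beside 25.8% of all genes tested. A fit of all 12 libraries with edgeR called 33 higher, beside 10.8%. DESeq2 called 4 higher, but its share over all genes is not given, so this is not read as a result about these genes. In Y4Y over Y18M edgeR called 0 of 51 in either direction, beside 0% of 16175 genes higher and 0.0371% lower. At an unadjusted p below 0.05 it gave 7 of the 51, beside 35.4% of all genes. DESeq2 called 11 higher, likewise given without a share and not read as a result about these genes. On the FPKM scale every Y18M library lay above every Y6M library for 28 of 52 genes and below for none, beside 29.7% and 8.05% of the genes tested, and every Y4Y library lay above every Y18M library for 46, beside 31%, and below for 1, CFAP20, beside 23.4%. Y18M-2 set the spread within Y18M. It was the highest of its group for 47 of 52 genes, beside 47.1% of all genes with a value, and at least 5 times both others for 39, beside 11.4%.

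The levels show this gene by gene. DNAH17 had 0.04, 30.0 and 0.08 FPKM in Y18M-1, Y18M-2 and Y18M-3, DNAH8 had 0.04, 18.1 and 0.18, and RSPH6A had 0.00, 16.7 and 0.03. CFAP97D1 had 0.00, 134 and 0.70 FPKM and RSPH9 had 0.44, 85.6 and 0.99. Y18M-2 was between the other 2 libraries and Y4Y in each. Relative to the Y4Y mean the levels of Y18M-2 ran from 33.3% for DNAH3 to 125% for CFAP20, with a median of 59.5%. In Y18M-2, 48 of 52 genes were below every Y4Y library, beside 35.5% of all genes with a value. CFAP97 was among the exceptions, with 177 FPKM in Y18M-2 against 168 in Y4Y-2. CFAP20, CFAP410, CFAP73, DNAH11 and DNAH5 were the genes not highest in Y18M-2. DNAH11 had 0.28, 2.07 and 2.56 FPKM in Y18M, so that Y18M-3, too, was near the Y4Y level.

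Without Y18M-2, 47 of 51 tested members rose from Y18M to Y4Y, beside 26.1% of 16377 genes, and none fell, beside 18.5%. The median log2 fold change was 4.96, against 0.04 over all genes. DNAH17 rose by 9.74 (SE 0.382, edgeR adjusted p = 9.68e-06) and SPAG17 by 9.18 (SE 0.462, edgeR adjusted p = 1.23e-05), from 1 and 8 counts in Y18M-1 and Y18M-3. RSPH6A had 0 and 1 counts in those libraries and 2407 over Y4Y, a ratio of shares of 2239 (95% exact interval 402 to 88490, counting error only). Without Y18M-2 the log2 fold changes of the round spermatid list had a median of 8.69 and those of the elongating spermatid list one of 10.29, with all 8 and all 4 genes called higher. The Leydig list had -2.61 and the fibroblast list -2.91, with all 3 and all 5 called lower. Their part in the rise was not tested. Those not called were CFAP20, CFAP410, DNAH11 and DNAH5. In this comparison DNAAF2 and DNAAF4 rose too, by 1.28 and 1.40. Between Y6M and the remaining Y18M libraries 0 of 38 genes were called by edgeR, beside 0.226% higher and 0.279% lower of 15071. At an unadjusted p below 0.05 edgeR gave 11 of the 38, beside 3175 of the 15071 genes. Leaving out Y18M-1 instead gave 22 called higher, beside 8.70% of 15454 genes.

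In CY over Y18M with all libraries, edgeR called 1 of 49 tested members, DNAH5, lower, beside 2.34% of 15702 genes, and 0 higher, beside 3.45%. DNAH5 had 0.21, 0.26 and 0.42 FPKM in Y18M and fell by 1.99 (SE 0.439, edgeR adjusted p = 0.0486), a call lost with library size scaling, with no filter, with limma, with the replicate block and in 5 of 6 fits with 1 library left out. At an unadjusted p below 0.05 edgeR gave 6 of 49, beside 30.3% of all genes tested. The median log2 fold change was -2.04, and it turned to 1.01 without Y18M-2. Without that library 12 of 50 members rose, beside 7.22% of 16139 genes, and DNAH5 fell, beside 8.04%. Those that rose were DNAH17, DNAH9, DNAH1, DNAH2, DNAI1, DNAI2, RSPH1, DRC3, CFAP69, CFAP74, SPAG17 and CFAP100. DNAH17 had the largest value of those called, 4.37 (SE 0.750, edgeR adjusted p = 0.0156), and DNAH9 rose by 2.01 (SE 0.201, edgeR adjusted p = 0.00497). On the FPKM scale every CY library was below Y18M-2 for 47 of the 52 genes, beside 44.9% of all genes with a value, below all 3 Y18M libraries for SPAG16, CFAP97, DNAH5 and RSPH4A, beside 15.1% of genes tested, and above all 3 for CFAP20, CFAP410, DNAH11 and DNAH9, beside 24%.

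Genes of the same structures that carry other names were looked at as a list of 85, of which 61 are in the tables: dynein docking, N-DRC, spoke, tektin and doublet genes and assembly factors such as CCDC39, TEKT2, ZMYND10 and LRRC6. In CY over Y4Y 57 of 61 fell, beside 27% of all genes tested, and 0 rose, beside 17.1%, with a median of -4.19. The 4 not called were MNS1, NME7, PIH1D1 and STK36. In CY over Y6M 24 of 54 tested rose, beside 18.1%, and 2 fell, beside 19.7%. Without Y18M-2, 60 of 61 rose from Y18M to Y4Y, beside 26.1%, all but PIH1D1. Unsymbolled genes described as dynein heavy chain 12, dynein heavy chain 14 (3 entries) and radial spoke head 10 homolog B also fell in CY over Y4Y, by 3.17 to 6.22, while an entry for dynein light chain 4 had a log2 fold change of 0.11 (edgeR adjusted p = 0.424) and one for dynein light chain 1 had 0.37 (edgeR adjusted p = 0.0515).

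Transcription factors known to switch on cilium and spermatid genes were measured by their own footprints, 12 of 13 listed being in the tables. RFX2, which drives cilium genes in spermatids, had 20.9, 20.2 and 21.7 FPKM in Y4Y and 1.51, 0.85 and 0.78 in CY, and fell by 4.28 (SE 0.289, edgeR adjusted p = 6.28e-06). FOXJ1, the main factor of motile cilia, had 5.25, 3.80 and 5.16 FPKM in Y4Y and 0.10, 0.30 and 0.40 in CY, and fell by 4.16 (SE 0.471, edgeR adjusted p = 0.000105). RFX3, RFX4, TCFL5, SOX30, CREM and TBPL1 fell as well, by 1.39 to 5.46. MYB, with 7.52, 8.63 and 7.05 FPKM in Y4Y and 21.0, 14.4 and 14.5 in CY, and TAF7L, with 83.7, 77.0 and 80.5 against 209, 188 and 180, rose by 1.13 and 1.27. Of the markers of multiciliated cells, MCIDAS was listed at 0 in all Y4Y libraries and GMNC at 0 in all CY libraries, FOXJ1, MCIDAS and GMNC being in both lists. The list of 11 summed to 41.6 to 44.5 FPKM in Y4Y and 5.03 to 6.32 in CY, and DEUP1 alone had means of 33.0 and 0.533 FPKM. ESR1 of the same list rose, from a mean of 1.19 FPKM in Y4Y to 3.31 in CY.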

How the data were processed

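The authors kept reads of 20 to 40 bases, aligned them to the yak genome (BosGru 3.0) and obtained the expected count of each gene with RSEM, deposited as whole numbers without normalization. The deposited FPKM divides these counts by gene length and library total, by the authors. Fold changes, p-values and group means in the tables are the authors' comparisons and were not used. Libraries present in several tables had identical values.

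The members, role groups and lists were chosen with earlier results of these data known. Each comparison used the 6 libraries of its groups: filterByExpr, TMM scaling and the quasi-likelihood test of edgeR, with p adjusted by Benjamini-Hochberg over all tested genes (R 4.3.3, edgeR 4.0.16). The standard error is the size of the log2 fold change over the square root of F. Alternatives were DESeq2 1.42.0, library size or RLE scaling, no filter, all 12 libraries, limma 3.58.1 on log2(FPKM + 1) or log2(FPKM + 0.1), the replicate block, members by description, and each library left out. The script was tested on simulated data. RSEM divides reads shared by similar genes, so counts of close copies are estimates.

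Named in full are the cilium and sperm copies, the 2 members of each role with the highest mean FPKM, in each comparison the 3 highest and 3 lowest fold changes, members called against the majority, and members at 3 counts or fewer in every library of 1 group but not of another. Replicate numbers do not pair animals. Positions and sequences are not analysed here, since the reference table is of another assembly.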

Additional observations from a re-analysis of the deposited data

How the results depend on the processing

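The called falls in CY over Y4Y were 45 under the replicate block. With 1 library left out they were 45 to 47, beside 24.2% to 27.2% of all genes. Called rises there were 0 with DESeq2 or RLE scaling, and 0 with limma on log2(FPKM + 1), beside 13.6% in the latter. With 1 library left out they were 0 to 2, beside 16.4% to 18.3%. In CY over Y6M, rises were 10 with all 12 libraries, beside 14.9%, 19 with limma on log2(FPKM + 1), beside 24.8%, and 29 with the block. Falls there were 2 with DESeq2 and 2 with all 12 libraries, beside 17.2% in the latter. With 1 library left out they were 1 to 2, beside 17.9% to 19.6%. In Y18M over Y6M, rises were 4 with DESeq2, 33 with all 12 libraries, beside 10.8% of all genes, and 2 with the block. With 1 library left out they were 0 to 22, beside 0 to 8.70%. In Y4Y over Y18M they were 11 with DESeq2, 7 with all 12 libraries, beside 6.63% of all genes, and 0 with the block. With 1 library left out they were 0 to 47, beside 0 to 26.1%. In CY over Y18M, rises were 1 with DESeq2 and 1 with all 12 libraries, beside 5.34% of all genes in the latter. With 1 library left out they were 0 to 12, beside 0 to 7.22%. Falls there were 4 with DESeq2 and 5 with all 12 libraries, beside 10.1% of all genes in the latter. They were 0 with library size scaling, no filter, either limma scale or the block, beside 2.24% for limma on log2(FPKM + 1). With 1 library left out they were 0 to 1, beside 0 to 8.04%. The other counts of members called lay within 1.5 times of those reported, 116 of 150 in all. Counts given here without a share over all genes are not read as results about these genes. The causes were not tested.

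With 1 library left out, the median in CY over Y18M ran from -2.61 to 1.01, and there CFAP97D1 ran from -6.73 to 0.63, DNAH8 from -4.80 to 1.56 and RSPH9 from -4.38 to 1.31. The upper ends are those without Y18M-2. In Y18M over Y6M, DNAH17 ran from -0.069 to 7.82 and CFAP20 from -0.28 to 0.064. CFAP20 was 0.25 there with library size scaling, 0.25 with limma on log2(FPKM + 1) and 0.26 on log2(FPKM + 0.1). CFAP410 ran from -0.088 to 0.70 in Y4Y over Y18M and from -0.40 to 0.38 in CY over Y4Y. In CY over Y6M, with library size scaling, limma on log2(FPKM + 1) and limma on log2(FPKM + 0.1), CFAP36 was 0.47, 0.46 and 0.47, CFAP410 was 0.27, 0.27 and 0.30, and SPAG16 was 0.068, 0.034 and 0.048, and CFAP36 ran from -0.15 to 0.0061 with 1 library left out. Same-numbered libraries of the groups compared correlated at -0.34 to 0.14 in their deviations, so the block has no pairing behind it. With 3 animals a group, a lone library such as Y18M-2 can decide a count.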
